A study of Mus musculus with 18 samples.

Results

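Klotho and the FGF receptors were followed as 6 genes of primary mouse renal proximal tubular epithelial cells (RPTEC): Kl (klotho), Klb (beta-klotho) and the receptor tyrosine kinases Fgfr1, Fgfr2, Fgfr3 and Fgfr4. They were chosen by name, as the 2 membrane klotho proteins and the 4 signalling FGF receptors, out of 36528 genes counted by RNA sequencing. The study asked which TWEAK-induced changes in gene expression depend on the kinase NIK, which starts non-canonical NF-κB signalling. Cells of C57BL/6 mice from a commercial vendor received vehicle (DMSO), recombinant mouse TWEAK at 100 ng/mL, or TWEAK at 100 ng/mL with the NIK inhibitor NIK SMI1 at 3 µM. RNA was taken at 6 h and at 24 h, with 3 samples in each of the 6 groups and 18 in all. No group received NIK SMI1 without TWEAK, and all groups share the medium and the strain. The sources used here do not say whether the 3 samples of a group came from separate animals or cell preparations, so the p-values measure the spread between these samples, which may be technical.

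FGF receptors are dimerising tyrosine kinases that signal mainly through the adaptor FRS2 to the RAS-ERK cascade. Most FGF ligands bind them together with heparan sulphate, whereas the endocrine ligands FGF15/19, FGF21 and FGF23 bind weakly on their own and need a klotho protein as co-receptor. In the kidney, klotho pairs with FGF receptors, chiefly FGFR1, to make the receptor for FGF23, which lowers phosphate reabsorption and active vitamin D in the proximal tubule. Beta-klotho pairs mainly with FGFR1 and FGFR4 and is best known from liver and fat.

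Sequencing depth was 18040966 to 51956444 counted reads a sample (median 35374254). Reads were scaled to CPM (counts per 1000000 reads) with library sizes corrected by trimmed mean of M values, and the 15521 genes with over 10 reads in 4 or more samples were tested. Tests used edgeR's quasi-likelihood fit on all 18 samples, with Benjamini-Hochberg adjustment over the 15521 genes and a threshold of adjusted p below 0.05. The treatment was visible in known NF-κB target genes: Traf1 had a mean of 1.21 CPM in vehicle samples at 6 h, 23.6 with TWEAK and 6.21 with TWEAK + NIK SMI1. Of 13 proximal tubule markers, 6 passed the filter, as did 15521 of all 36528 genes. Among these 6, Lrp2 and Slc5a12 had at most 15 and 20 reads in any sample. The phosphate transporter Slc34a1 and the transcription factor Hnf4a did not pass, and Slc22a8 and Miox had no read. These markers therefore bore out the labelled cell type at most in part. All 8 markers of kidney epithelium passed, with a summed level of 7832 to 10940 CPM, while 0 of 7 markers of other nephron segments did. Of 8 fibroblast and mesenchyme markers 5 passed, with a summed level of 37.5 to 50.9 CPM, against 16 to 19.1 CPM for proximal tubule. In each of the leukocyte, endothelium and podocyte lists 1 marker passed. The summed leukocyte level was 11.1 to 14.5 CPM, mainly from Cd68. Messages of pancreatic islet hormones reached 3.39 to 24.5 CPM in 14 of the 18 libraries and stayed at or below 0.208 CPM in the other 4, which were the 3 samples with TWEAK + NIK SMI1 at 24 h and 1 TWEAK sample at 24 h. Without those 14 libraries only TWEAK with NIK SMI1 against TWEAK at 24 h could still be compared. What is given for it below is the Fgfr4 value and the count of all genes called.

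The cells carried a single dominant FGF receptor and almost no klotho. Levels between genes were compared as RPKM, reads scaled to exonic length and depth as the authors computed them. By mean RPKM over all samples the order was Fgfr1, Fgfr4, Fgfr2, Fgfr3, Kl and Klb. Fgfr1 was above Fgfr4 in 18 of 18 samples, with 16.2 times its mean RPKM. Fgfr4 exceeded Fgfr2 in 18 of 18 samples and by 4.59 times in the mean, Fgfr2 exceeded Fgfr3 by 3.57 times, and Fgfr3 exceeded Kl by 3.98 times, again in every sample. Within each of the 6 groups none of these neighbours overlapped. Kl and Klb, the lowest pair, overlapped in 4 of the 6 groups and cannot be put in order in those. Fgfr1 lay above 83.5% of the 15521 tested genes in mean RPKM, Fgfr4 above 28.8%, Fgfr2 above 14% and Fgfr3 above 4.45%.

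**Figure D1:**
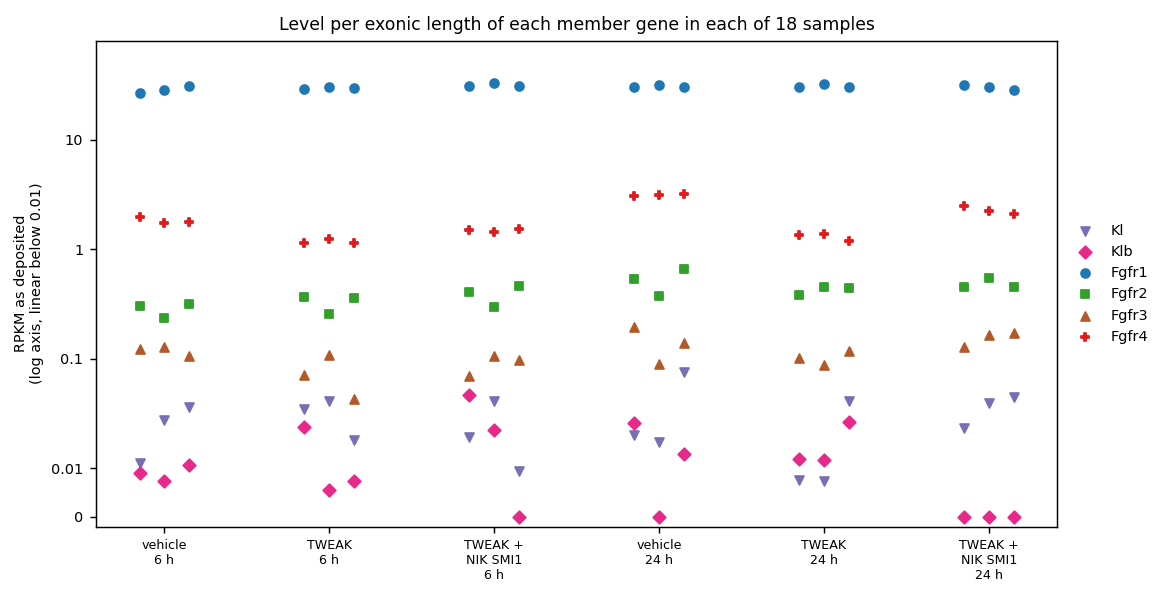
RPKM as deposited (vertical axis, logarithmic above 0.01 and linear below it) for Kl, Klb, Fgfr1, Fgfr2, Fgfr3 and Fgfr4 in each of the 18 samples, grouped by treatment and time along the horizontal axis. The 4 receptors form separate bands in the order Fgfr1, Fgfr4, Fgfr2 and Fgfr3, while Kl and Klb mix at the bottom.

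For 5 of the 6 genes a RefSeq promoter window of the mouse assembly GRCm38.p6 was at hand, running from 250 bases before to 50 bases after the annotated start. Those of Fgfr4 and Fgfr2 are shown because they belong to the 2 receptors with the largest changes past the threshold in the tests below. The Fgfr4 window is chr13:55152568-55152867 on the plus strand and the Fgfr2 window is chr7:130266759-130267058 on the minus strand. Each is written 5′ to 3′ on the strand of the gene, and capitals mark matches, on either strand, to an NF-κB consensus or to the GC box GGGCGG.
Fgfr4: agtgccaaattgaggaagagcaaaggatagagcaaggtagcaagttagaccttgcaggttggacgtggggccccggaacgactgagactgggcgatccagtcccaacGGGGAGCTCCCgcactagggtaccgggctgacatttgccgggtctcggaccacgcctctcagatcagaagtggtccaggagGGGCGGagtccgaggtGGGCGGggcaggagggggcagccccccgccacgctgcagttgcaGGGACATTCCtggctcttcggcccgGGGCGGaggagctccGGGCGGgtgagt
Fgfr2: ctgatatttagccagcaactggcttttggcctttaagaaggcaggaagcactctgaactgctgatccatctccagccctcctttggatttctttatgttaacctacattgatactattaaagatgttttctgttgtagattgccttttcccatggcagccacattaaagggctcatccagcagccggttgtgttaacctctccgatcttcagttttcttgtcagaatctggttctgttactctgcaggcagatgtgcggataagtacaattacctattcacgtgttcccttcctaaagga
The Fgfr4 window held 3 NF-κB matches. Of these, GGGGAGCTCC and GGGAGCTCCC began 143 and 142 bases before the start and overlap each other, and GGGACATTCC began 2 bases before it. It also held 4 GC boxes and was 65.3% GC. In the Fgfr2 window neither motif was found and GC content was 43.7%, against a median of 52.7% over all 32851 windows. An NF-κB match occurred in 8.46% of the 32851 windows and a GC box in 35.7%. The window of Kl, at chr5:150952357-150952656 on the plus strand, held 3 GC boxes and no NF-κB match, and that of Klb held neither. Fgfr3, which was called in no comparison, had 2 windows, of which chr5:33721474-33721773 held 1 NF-κB match, GGAGCACCCC beginning 13 bases after the start, and 4 GC boxes, and chr5:33722056-33722355 held 2 GC boxes and no NF-κB match. These matches are letters in a window, and binding was not measured.

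Kl, the FGF23 co-receptor, was at the limit of detection. In order of sample it had 2, 6 and 11 reads in vehicle at 6 h, 7, 12 and 4 with TWEAK at 6 h, and 4, 6 and 1 with TWEAK + NIK SMI1 at 6 h. At 24 h it had 5, 2 and 9 reads in vehicle, 1, 2 and 10 with TWEAK, and 6, 8 and 8 with TWEAK + NIK SMI1. The ranges of the groups compared overlapped in every comparison, and only 2 samples had more than 10 reads, so Kl did not enter the fit. Scaled to depth, the summed reads with TWEAK were 0.606 times those of vehicle at 24 h, with a 95% counting interval of 0.268 to 1.34 and an exact two-sided permutation p of 0.5. The ratio of TWEAK with NIK SMI1 to TWEAK at 24 h was 1.72, with an interval of 0.828 to 3.71 and an exact permutation p of 0.3. At 6 h the ratio of TWEAK to vehicle was 1.18 (0.617 to 2.30, exact permutation p = 0.6). Such intervals cover counting error only, and 3 samples against 3 cannot give a p below 0.1. A fall or a rise of Kl of the size seen for Fgfr4 was therefore not detectable at this depth.

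Klb, the co-receptor of FGF15 and FGF21, was lower still, with 29 reads in all 18 samples together and 5 samples without a read. At 6 h there were 1, 1 and 2 reads in vehicle, 3, 1 and 1 with TWEAK, and 6, 2 and 0 with TWEAK + NIK SMI1. At 24 h there were 4, 0 and 1 in vehicle, 1, 2 and 4 with TWEAK, and 0, 0 and 0 with TWEAK + NIK SMI1. No other group was without a read, and 0 reads over the group allow up to 0.0274 CPM (3 counts). Against the 7 reads of the TWEAK samples the groups did not overlap, with an exact two-sided permutation p of 0.1, the smallest this design can give. In all other comparisons of Klb the groups overlapped. When the filter was dropped and all genes with a read were fitted, the adjusted p of this difference was 0.119 (edgeR).

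**Figure D2:**
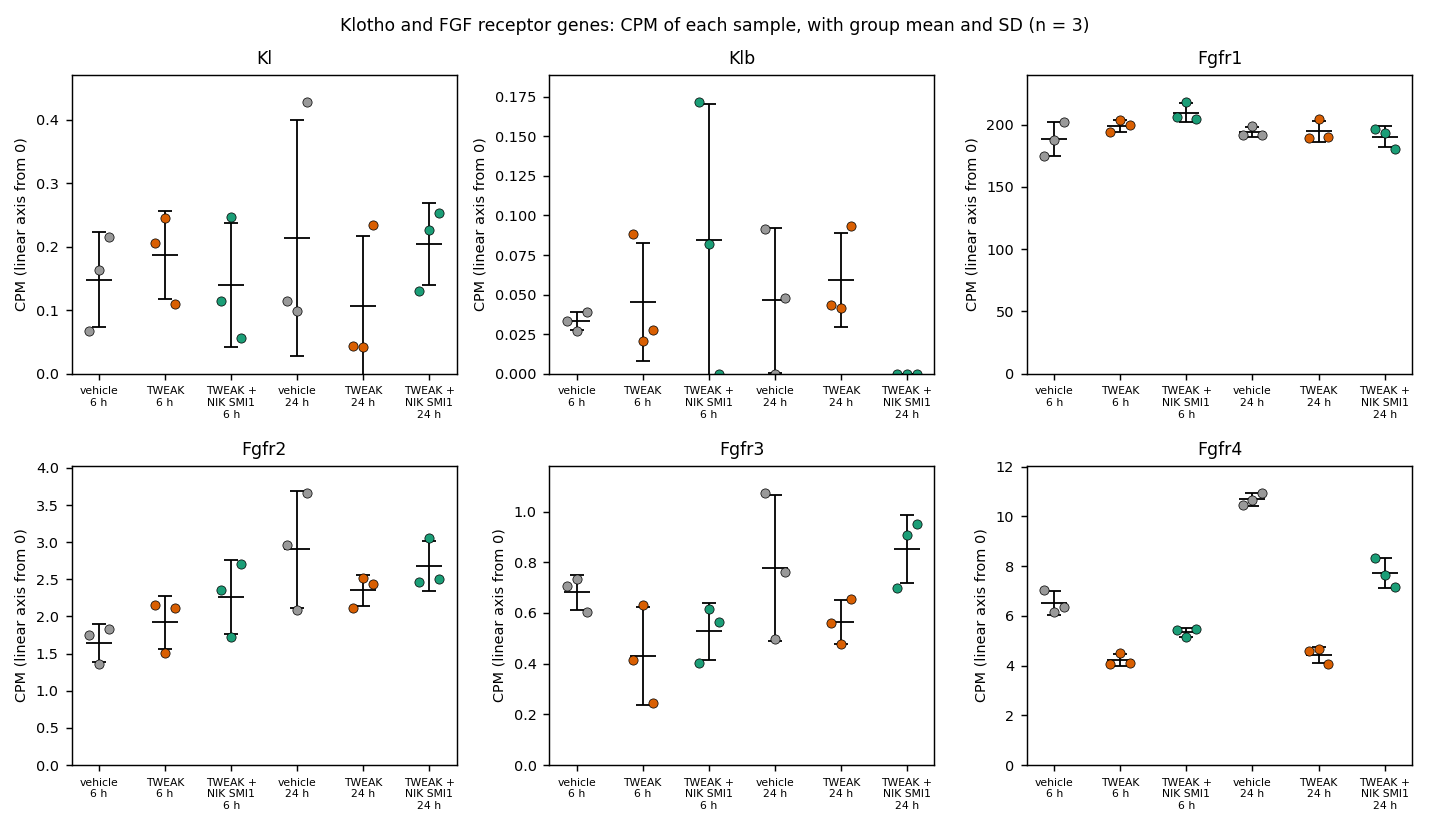
CPM of each sample (points) with the group mean and SD (bars, n = 3) for the 6 genes, each on its own linear axis from 0. Fgfr4 fell with TWEAK at both times and lay between the TWEAK and vehicle samples with NIK SMI1, Fgfr1 stayed within 175 to 218 CPM, and Kl and Klb scattered near 0.

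Fgfr1, which makes the main FGF23 receptor together with klotho, held nearly the same level throughout. At 6 h it measured 175, 188 and 202 CPM in vehicle, 194, 204 and 199 with TWEAK, and 206, 218 and 205 with TWEAK + NIK SMI1. At 24 h it measured 192, 199 and 192 CPM in vehicle, 190, 204 and 190 with TWEAK, and 196, 194 and 181 with TWEAK + NIK SMI1. TWEAK and vehicle samples overlapped at both times, and the 3 samples with NIK SMI1 at 6 h lay just above the other 6 of that time. The log2 fold change of TWEAK against vehicle was 0.08 at 6 h (95% interval -0.01 to 0.17) and 0.01 at 24 h (-0.08 to 0.10), with adjusted p of 0.22 and 0.927. With TWEAK + NIK SMI1 against TWEAK it was 0.07 at 6 h (-0.02 to 0.17) and -0.03 at 24 h (-0.12 to 0.06). A change as large as that of Fgfr4 lay outside each of these intervals. TWEAK with NIK SMI1 against vehicle at 6 h gave a log2 fold change of 0.15 ± 0.04 (SE, adjusted p = 0.02), a comparison in which 13.9% of all tested genes were called. That call was lost without vehicle sample 1 at 6 h (0.10, adjusted p = 0.138) and without sample 2 of TWEAK with NIK SMI1 at 6 h (0.12, adjusted p = 0.127). In the RefSeq annotation Fgfr1 overlaps the long non-coding RNA genes Gm31288 and Gm16159, and the library kit keeps no strand, so reads in the overlap could come from either gene.

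Fgfr4, the receptor preferred by FGF15/19, fell with TWEAK. At 6 h it measured 7.05, 6.17 and 6.34 CPM in vehicle samples and 4.07, 4.49 and 4.11 CPM with TWEAK, 2 groups that did not overlap. By 24 h vehicle samples had 10.4, 10.7 and 10.9 CPM and TWEAK samples 4.57, 4.65 and 4.05 CPM, so that the lowest vehicle sample was more than 2 times the highest TWEAK sample. The log2 fold change of TWEAK against vehicle was -0.61 ± 0.09 (SE) at 6 h (adjusted p = 1.12e-05) and -1.27 ± 0.09 at 24 h (adjusted p = 1.14e-11), a level 2.42-fold lower at 24 h. None of the other 3 tested members was called in either comparison. Among all tested genes 23.7% were called at 6 h (11.7% higher and 12% lower) and 39% at 24 h (18.3% higher and 20.7% lower). The fall at 24 h exceeded that at 6 h by -0.66 ± 0.13 on the log2 scale (adjusted p = 0.00139), an interaction called in 8.91% of genes.

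The larger difference at 24 h went with a rise in the vehicle samples. Fgfr4 was 1.64-fold higher in vehicle at 24 h than at 6 h (log2 fold change 0.72 ± 0.09, adjusted p = 4.24e-07), while the TWEAK samples of the 2 times overlapped, at 4.07 to 4.49 CPM and 4.05 to 4.65 CPM. In the comparison of the vehicle groups 29.9% of tested genes were called. These comparisons share the vehicle samples, so they are not independent of each other.

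NIK SMI1 moved Fgfr4 part of the way back towards vehicle. With TWEAK + NIK SMI1 it measured 5.42, 5.14 and 5.47 CPM at 6 h and 8.34, 7.65 and 7.15 CPM at 24 h. At each time all 3 samples lay above every TWEAK sample and below every vehicle sample. Against TWEAK the log2 fold change was 0.33 ± 0.10 at 6 h (adjusted p = 0.0359) and 0.81 ± 0.09 at 24 h (adjusted p = 2.12e-07), which at 24 h is 1.76-fold. Of all tested genes 11% were called in this comparison at 6 h (5.34% higher and 5.7% lower) and 18.5% at 24 h (10.2% higher and 8.29% lower). Against vehicle it remained lower, by a log2 fold change of -0.28 ± 0.10 at 6 h (adjusted p = 0.0567, short of the threshold) and -0.46 ± 0.09 at 24 h (adjusted p = 0.000263, in a comparison that called 17.9% of genes). The 6 h difference from TWEAK was weakly held: DESeq2 gave an adjusted p of 0.0622, and leaving out TWEAK sample 1 or 3, or any 1 sample of TWEAK with NIK SMI1 at 6 h, gave 0.0637 to 0.124. The difference between the NIK SMI1 effects at 24 h and 6 h was 0.48 ± 0.14 (adjusted p = 0.0462, 4.73% of genes called), and leaving out 14 of the 18 samples, 1 at a time, lost the call (adjusted p up to 0.127). The 4 samples without this effect were vehicle samples 1 and 2 at 6 h and sample 3 of TWEAK + NIK SMI1 at each time.

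Measures of the cells also moved with treatment, in part along with Fgfr4. Of the 8 kidney epithelium markers, TWEAK lowered 5 and raised 2 at 6 h and lowered 7 and raised 1 at 24 h. NIK SMI1 raised 5 and lowered 1 at 6 h and raised 6 and lowered 1 at 24 h. Of all tested genes TWEAK lowered 12% and raised 11.7% at 6 h, and lowered 20.7% and raised 18.3% at 24 h. NIK SMI1 raised 5.34% and lowered 5.7% at 6 h, and raised 10.2% and lowered 8.29% at 24 h. The summed level of the 8 markers at 24 h ran from 8898 to 9075 CPM in vehicle. It was 7832 to 7970 with TWEAK and 8586 to 8680 with TWEAK + NIK SMI1. Single markers moved further than the sum: Krt19 averaged 1449, 791 and 1090 CPM in these groups, and Epcam, which moved the opposite way, 633, 1185 and 860 CPM. The summed level of the 13 proximal tubule markers was 17.1 to 19 CPM, 17.8 to 19.1 CPM and 16 to 18 CPM in the same groups. In vehicle at 6 h the kidney epithelium sum was 10350 to 10870 CPM, so it fell from 6 h to 24 h while Fgfr4 rose. Pax2 (44 to 49.2 CPM) and Pax8 (40.4 to 48.2 CPM) rose in the mean between these vehicle groups. In bulk RNA, fewer cells of a type and less RNA per cell cannot be told apart, and the part of these shifts in the Fgfr4 result was not tested. Without the 14 libraries that held islet messages, the difference of TWEAK with NIK SMI1 (3 samples) from TWEAK (1 sample) at 24 h was 0.73 on the log2 scale (adjusted p = 0.00231), with the lone sample assumed to vary like the others.

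**Figure D3:**
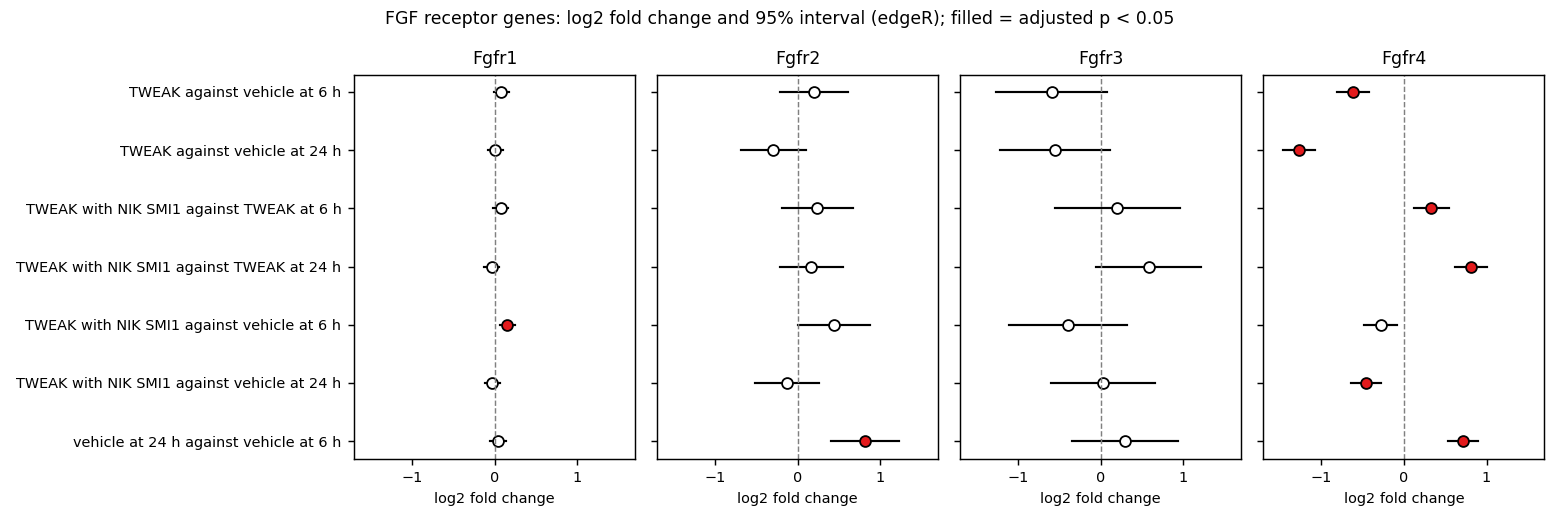
Log2 fold change (point) and 95% interval (line) from edgeR for Fgfr1, Fgfr2, Fgfr3 and Fgfr4 in 7 comparisons, filled where the adjusted p was below 0.05. Fgfr4 was called in 6 of the 7, Fgfr2 in the comparison of the vehicle times, Fgfr1 in TWEAK with NIK SMI1 against vehicle at 6 h and Fgfr3 in none, its intervals being the widest.

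The receptor make-up shifted accordingly. Of the summed RPKM of the 4 receptors, Fgfr4 made up 9.08% ± 0.22 (SD, n = 3) in vehicle at 24 h, 3.97% ± 0.24 with TWEAK and 6.85% ± 0.28 with TWEAK + NIK SMI1. The share of Fgfr1 was 89% ± 0.72, 94.4% ± 0.13 and 91.2% ± 0.09 in the same groups. Over all 18 samples the share of Fgfr1 ran from 88.3% to 95.1%. These are shares of message and say nothing of receptor protein at the cell surface.

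Fgfr2, whose epithelial isoform binds FGF7 and FGF10, rose from 6 h to 24 h in vehicle. It measured 1.75, 1.36 and 1.83 CPM in vehicle at 6 h and 2.97, 2.08 and 3.66 CPM in vehicle at 24 h, without overlap. The log2 fold change was 0.82 ± 0.20 (adjusted p = 0.00235), or 1.76-fold. With TWEAK it measured 2.15, 1.51 and 2.11 CPM at 6 h and 2.11, 2.51 and 2.43 CPM at 24 h, and with TWEAK + NIK SMI1 2.35, 1.73 and 2.71 CPM at 6 h and 2.46, 3.06 and 2.5 CPM at 24 h. Groups of the same time overlapped throughout. TWEAK against vehicle gave log2 fold changes of 0.20 (95% interval -0.22 to 0.61) at 6 h and -0.29 (-0.69 to 0.10) at 24 h, neither past the threshold (adjusted p = 0.557 and 0.244). A fall as large as that of Fgfr4 at 24 h lay outside the interval for Fgfr2.

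Fgfr3, a receptor of epithelia and cartilage, had 9 to 47 reads a sample and the widest errors. At 6 h there were 0.705, 0.734 and 0.604 CPM in vehicle, 0.412, 0.633 and 0.247 CPM with TWEAK, and 0.401, 0.617 and 0.564 CPM with TWEAK + NIK SMI1. At 24 h there were 1.07, 0.496 and 0.761 CPM in vehicle, 0.561, 0.478 and 0.655 CPM with TWEAK, and 0.698, 0.907 and 0.949 CPM with TWEAK + NIK SMI1. The last group lay above all TWEAK samples at 24 h, and the other groups of the same time overlapped. TWEAK against vehicle gave a log2 fold change of -0.60 at 6 h (95% interval -1.26 to 0.07, adjusted p = 0.21) and -0.55 at 24 h (-1.22 to 0.11, adjusted p = 0.187). NIK SMI1 against TWEAK alone gave 0.58 at 24 h (-0.06 to 1.21, adjusted p = 0.22). Each of these intervals holds 0, and the first and the last of them also hold the change of Fgfr4 in the same comparison.

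Among genes with a mean of at least 1 CPM, the 5 whose log2 CPM correlated best with Fgfr4 over the 18 samples were Prom1 (r = 0.988), which encodes prominin 1, Them6 (0.983), Ccnd2 (0.981), which encodes cyclin D2, Kcnk1 (0.978), a potassium channel, and Pdxk (0.972), pyridoxal kinase. All 18 points share the group structure, so these correlations are a description. Prom1 averaged 781 CPM in vehicle at 24 h, 426 with TWEAK and 604 with TWEAK + NIK SMI1, and Pdxk averaged 160, 74.4 and 107 CPM. At 24 h the log2 fold change of TWEAK against vehicle was -0.87 for Prom1 and -1.10 for Pdxk, both smaller in size than that of Fgfr4. For Fgfr1 the most alike gene was Scaf1 (r = 0.897), for Fgfr2 Gtpbp1 (0.815) and for Fgfr3 Slc25a40 (0.822), lower values than for Fgfr4.

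**Figure D4:**
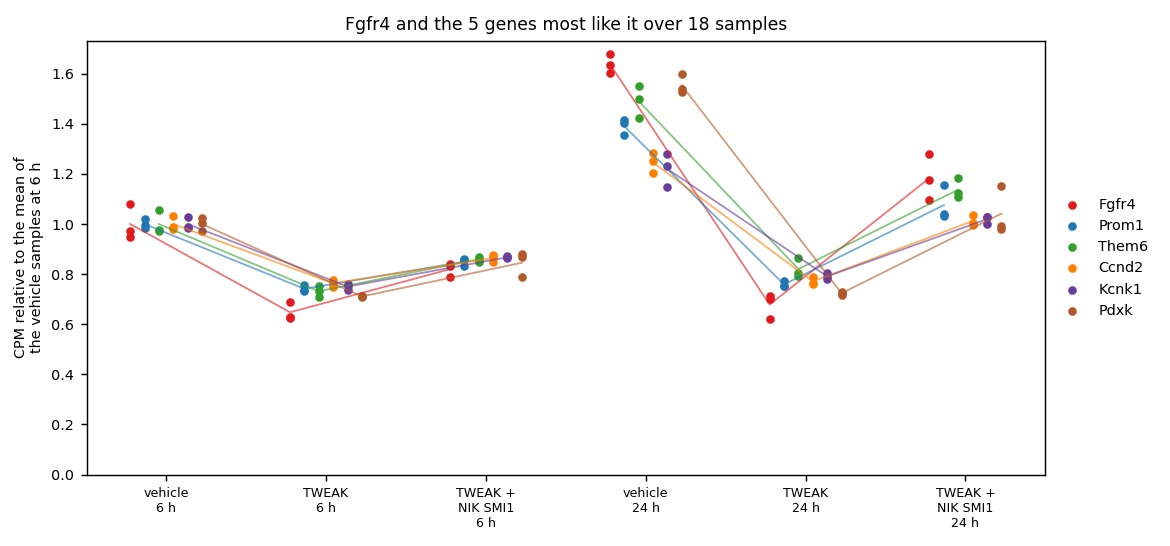
CPM of Fgfr4 and of the 5 genes most like it, each divided by its own mean in vehicle at 6 h (vertical axis, linear from 0). Points are the 3 samples of a group and lines join group means within a time. In the group means all 6 genes were lowest with TWEAK, highest in vehicle and in between with NIK SMI1 at both times.

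Of 22 FGF genes 7 passed the filter, beside 15521 of all 36528 genes. The endocrine ligands Fgf15, Fgf21 and Fgf23 had at most 9, 6 and 2 reads in any sample. The 7 included Fgf11 and Fgf13, so the counts below are of FGF genes and not of receptor ligands. TWEAK lowered 4 of the 7 and raised 1 at 6 h, with a median log2 fold change of -0.69, and lowered 5 and raised 0 at 24 h, with a median of -0.59. Of all tested genes 12% were lower and 11.7% higher at 6 h, and 20.7% lower and 18.3% higher at 24 h. The medians over all tested genes were within 0.01 of 0. Several of the 7 were near the floor: Fgf2, Fgf7 and Fgf18 had at most 39, 69 and 94 reads in any sample. Fgf18 averaged 2.37 ± 0.73 CPM (SD, n = 3) in vehicle at 24 h, 0.617 ± 0.11 with TWEAK and 1.34 ± 0.25 with TWEAK + NIK SMI1, and was called in both comparisons (adjusted p = 4.35e-07 and 0.00209). Fgf1, a ligand of all 4 receptors, went the other way at 6 h, from 3.52 CPM in vehicle to 6.30 with TWEAK and back to 3.48 with NIK SMI1 (adjusted p = 3.95e-06 and 2.71e-05). At 24 h it averaged 5.12 CPM in vehicle, 4.83 with TWEAK and 3.78 with TWEAK + NIK SMI1. The last was below vehicle (edgeR, adjusted p = 0.0204), and the TWEAK effect on Fgf1 differed between the times (edgeR interaction, adjusted p = 0.000649).

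Co-factors at the cell surface divided. Of 7 tested heparan sulphate proteoglycans, TWEAK lowered 3 and raised 0 at 6 h and lowered 4 and raised 1 at 24 h, and NIK SMI1 raised 3 and lowered 1 at 24 h. Of all genes 23.7%, 39% and 18.5% were called in these comparisons. Gpc6 (glypican 6) fell from 25.8 to 10.7 CPM at 24 h (log2 fold change -1.29 ± 0.07) and stood at 16.3 CPM with NIK SMI1. Among 12 genes of heparan sulphate synthesis, 4 fell and 2 rose with TWEAK at 24 h, beside the same 39%. The smallest p was that of Hs3st1, a 3-O-sulphotransferase, at 44.8 ± 1.64 CPM in vehicle, 11.7 ± 0.62 with TWEAK and 23 ± 0.91 with TWEAK + NIK SMI1 (adjusted p = 4.04e-19 and 7.01e-12). Fgfrl1, a receptor without a kinase domain, rose with TWEAK from 55 to 75.4 CPM at 6 h and from 55.4 to 74.1 CPM at 24 h. Fgfbp1, a carrier of secreted FGFs, fell from 36.5 to 22.3 CPM at 24 h and stood at 34.3 CPM with NIK SMI1. Of the 3 proteases that can shed klotho, 1 rose and 2 fell with TWEAK at each time, beside 23.7% and 39% of all genes called. The fall of Adam10 at 6 h was lost in 1 of 24 alternatives. At 24 h Adam17 rose 1.18-fold (adjusted p = 7.01e-06), Adam10 fell from 144 to 121 CPM (adjusted p = 2.01e-05) and Bace1 from 81.5 to 75.8 CPM (adjusted p = 0.04, a call lost in 7 of 24 alternatives).

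Downstream of the receptors, the 18 adaptors and effectors of the RAS-ERK cascade were all expressed. At 6 h 1 rose and 1 fell with TWEAK, against 23.7% of all tested genes called. At 24 h 6 rose and 3 fell, against 39% of all genes called, with a median log2 fold change of 0.01, and under the alternatives 3 to 6 rose and 1 to 3 fell. Of 15 feedback inhibitors and ERK-dependent genes, 7 were lower and 1 higher with TWEAK at 6 h, where 12% of all tested genes were lower and 11.7% higher. At 24 h 8 were lower and 1 higher, where 20.7% of all genes were lower and 18.3% higher. With NIK SMI1 against TWEAK, 3 were higher at 6 h and 5 at 24 h, where 5.34% and 10.2% of all genes were higher, and 0 were lower at either time. Dusp6, an ERK phosphatase and a standard reporter of FGF signalling, averaged 297 ± 2.00 CPM in vehicle at 24 h, 190 ± 2.78 with TWEAK and 245 ± 2.53 with TWEAK + NIK SMI1 (adjusted p = 1.15e-16 and 6.14e-11). Spry1, another feedback inhibitor, fell from 35.6 to 26.8 CPM at 6 h and stood at 32.5 CPM with NIK SMI1. The gene raised by TWEAK at 6 h was Egr1, from 60.2 to 72.8 CPM (edgeR, adjusted p = 2.68e-05). At 24 h it was Etv4, from 84.7 to 102 CPM (adjusted p = 6.6e-05). These genes also answer to receptors other than those for FGFs, and FGF signalling itself was not measured.

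Of 13 phosphate and vitamin D genes linked to the FGF23 and klotho pathway in the kidney, 6 were tested. The sodium-phosphate transporters Slc34a1, Slc34a2 and Slc34a3 and the vitamin D 24-hydroxylase Cyp24a1 stayed below the filter, with at most 1, 12, 4 and 8 reads in any sample. TWEAK raised 2 and lowered 2 of the 6 at 6 h, and raised 4 and lowered 1 at 24 h, against 23.7% and 39% of all genes called. The gene lowered at 24 h was Slc9a3r1, which encodes the transporter scaffold NHERF1, from 230 to 174 CPM (log2 fold change -0.40, adjusted p = 1.73e-09). Sgk1, a kinase that regulates transporters, rose from 25.9 to 39.8 CPM and was 27.9 CPM with NIK SMI1 (adjusted p = 1.35e-08 and 5.11e-07). In the klotho family, Lctl, a klotho-like glycosidase, was 1.95-fold higher in vehicle at 24 h than at 6 h (adjusted p = 1.97e-06), and neither tested relative was called with TWEAK.

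**Figure D5:**
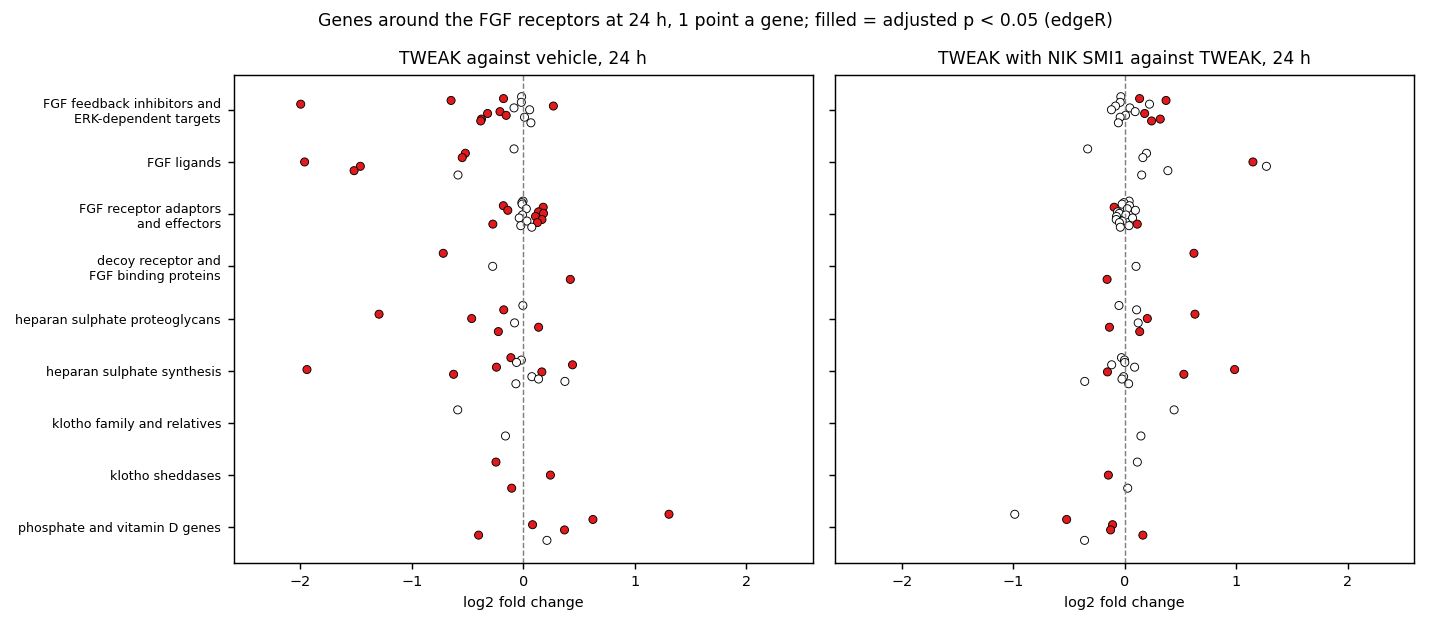
Log2 fold change at 24 h of each tested gene in 9 gene lists around the FGF receptors, for TWEAK against vehicle (left) and TWEAK with NIK SMI1 against TWEAK (right), filled where the adjusted p was below 0.05. Of the feedback inhibitors with ERK-dependent targets, 8 were called lower and 1 higher with TWEAK, and 5 higher and 0 lower with NIK SMI1.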

How the data were processed

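The authors aligned with GSNAP (mouse NCBI build 37) and deposited, for each of 18 samples, raw read counts per gene over exons and RPKM values with the exonic width of each gene. The counts make up 94.97% to 97.13% of the read total behind the RPKM. Deposited gene identifiers were matched to RefSeq symbols (31049 of 36528). Samples were grouped by agent and time from the labels. The counts were fitted with edgeR 4.0.16 (R 4.3.3) as 6 groups in 1 model without covariates, and the filter, CPM and threshold were those stated above. The deposited RPKM served only to compare levels between genes. Summaries, exact permutation tests of Kl and Klb and figures used Python 3.11.15, scipy 1.17.1 and matplotlib 3.10.9. Alternatives were DESeq2 1.42.0 (the tool of the study), its size factors, library size alone, other filters, each time point alone, each sample left out and libraries with islet reads left out. The fitting code was tested on simulated data. The 6 genes, the gene lists and the tests were chosen with earlier results of these data known. In each list the text names genes among the 3 with the smallest p in a comparison, genes under the filter given by reads, and the 5 genes most correlated with a member (log2 CPM, prior count 2). Promoter windows came from RefSeq (GRCm38.p6); a window for Fgfr1 was not used here.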

Additional observations from a re-analysis of the deposited data

Results flagged for a closer look

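The effect of TWEAK on Fgfr4 differed between the times: the log2 fold change at 24 h minus that at 6 h was -0.66 ± 0.13 (SE), by the interaction term in edgeR (adjusted p = 0.00139), and it stayed past the threshold in all 23 alternatives run (-0.71 to -0.59). The effect of NIK SMI1 on Fgfr4 in the presence of TWEAK also differed, by 0.48 ± 0.14 (adjusted p = 0.0462), and this kept its direction in all 23 alternatives and its side of the threshold in 7 of them.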

How the results depend on the processing

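No result changed direction past the threshold in any alternative. The falls of Fgfr4 with TWEAK at 6 h (-0.67 to -0.56) and 24 h (-1.32 to -1.21), its difference from TWEAK with NIK SMI1 at 24 h (0.73 to 0.86), its rise in vehicle (0.68 to 0.78) and that of Fgfr2 (0.66 to 0.97) stayed past the threshold in every alternative run. For TWEAK with NIK SMI1 against TWEAK at 6 h the Fgfr4 value was 0.33 with DESeq2 (adjusted p = 0.0622), 0.33 with each time point alone (0.0718) and 0.33 with no filter (0.105), which left 0 members called in each, and 0.30 to 0.39 with a sample left out (0 to 1 members called). The NIK SMI1 interaction had 0 members called with DESeq2 (Fgfr4 0.48, adjusted p = 0.0522) and with no filter (0.49, 0.0774), and 0 to 1 with a sample left out. Against vehicle at 6 h, TWEAK with NIK SMI1 had 2 members called with library size alone (Fgfr4 -0.29, adjusted p = 0.0499) and 0 to 1 with a sample left out. TWEAK against vehicle at 6 h had 1 to 2, and Fgfr1 then ran from 0.0302 to 0.134 (adjusted p = 0.0289 without vehicle sample 3). Counts of all genes called moved too: 1138 to 1894 for TWEAK with NIK SMI1 against TWEAK at 6 h, 1400 to 2326 against vehicle at 6 h and 388 to 1086 for the NIK SMI1 interaction with a sample left out, and 1640 in place of 2866 for TWEAK with NIK SMI1 against TWEAK at 24 h without islet libraries, where fewer samples enter. Other causes were not tested. Leaving out islet libraries gave no value for any other comparison, since a group was left without samples. The list genes with the smallest p were run through the same alternatives after the data were seen. This covered TWEAK against vehicle and NIK SMI1 against TWEAK at each time, without Lctl, Egr1 and Etv4. Of the values, 2108 stayed past the threshold, 49 did not and none changed sign. No paired analysis was possible because the labels carry no replicate numbers. Depth limits Kl, Klb and Fgfr3.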
